A study of Homo sapiens with 6 samples.

Results

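The genes of DNA replication, together with E2F transcription factors and genes that E2F factors are known to control, were followed as a set of 49 listed genes in MCF10A cells that overexpress a potassium channel subunit. All 49 symbols were found among the 20793 genes of the panel, and 46 of them had enough reads to be tested. MCF10A is a widely used human line of mammary epithelium that does not form tumours. Expression was measured by Ion AmpliSeq sequencing, in which 1 short amplicon stands for each gene. Of the 6 libraries read, 2 were labelled as the parental line (WT). Another 2 were of a line stably overexpressing eGFP, the control. The last 2 were of a line stably overexpressing GIRK1, the product of KCNJ3. The eGFP and GIRK1 lines were made with the same vector, pIRES2eGFP, with G418 selection and a sort on eGFP fluorescence, so that the GIRK1 cells carry eGFP as well. The promoter of the vector is not stated in the text. The design text speaks of 2 lines of each kind and the methods of 2 replicates, and nothing says that replicates came from separate cultures or clones, so p-values measure only the spread between these libraries. Levels are given as RPM, the reads of a gene scaled to the total of its library in the usual way for count data, and are not compared between genes because each rests on its own amplicon.

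Before a cell copies its DNA, the origin recognition complex, CDC6 and CDT1 load the ring-shaped MCM helicase on origins. CDC45 and the GINS complex then join the ring and turn it into the active helicase, after which primase, the DNA polymerases, the PCNA clamp and its loader RFC build the new strands. Most of these genes are transcribed at the border of G1 and S phase, when E2F factors are freed from the retinoblastoma proteins, and epithelial lines in culture express them as long as they cycle.

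The promoters of the set are shown because E2F letters were common in them. RefSeq promoters (GRCh38.p14, 250 bases before to 50 after the start) were matched for 43 of the 49 genes. The letters TTTGGCGC, TTTCGCGC, TTTCCCGC or TTTGCCGC, read on either strand, were found in 23 of the 43 promoters (53.5%), against 3.33% of all 27305 promoters and 5.51% of the 8352 promoters of tested genes. The list was drawn up to include known E2F targets, so this share is not independent of the choice of genes. CCAAT on either strand was present in 53.5% of the promoters of the set and in 35.7% of all promoters, and GGGCGG in 72.1% and 44.6%, or 71.4% of the promoters of tested genes. A match of letters describes the sequence and does not show that a factor binds there. Only some of the 23 promoters are printed, and a further match in MCM3 begins at -4, outside the stretch printed for it. In the stretches below, each written 5′ to 3′ on the strand of its gene, capitals mark the E2F letters upstream of the RefSeq start, at positions -174 for MCM3, -59 for PCNA, -137 for POLA1 and -33 and -20 for E2F1. They lie at chr6:52284889-52284976 (minus strand), chr20:5126654-5126741 (minus strand), chrX:24693721-24693808 (plus strand) and chr20:33686386-33686478 (minus strand). The GENCODE span of E2F1, used for positions further on, reaches to 33686404. Part of the E2F1 stretch, with most of its second match, therefore lies inside that span.
MCM3: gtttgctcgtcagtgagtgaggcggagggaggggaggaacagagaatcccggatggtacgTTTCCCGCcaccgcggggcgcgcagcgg
PCNA: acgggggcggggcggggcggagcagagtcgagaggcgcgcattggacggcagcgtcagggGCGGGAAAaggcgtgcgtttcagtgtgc
POLA1: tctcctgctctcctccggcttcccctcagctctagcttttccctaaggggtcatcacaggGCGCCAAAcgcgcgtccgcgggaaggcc
E2F1: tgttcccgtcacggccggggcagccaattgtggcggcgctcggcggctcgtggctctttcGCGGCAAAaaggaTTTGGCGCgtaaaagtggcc

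The libraries held between 2506120 and 16040556 reads, and 3 reads corresponded to 0.187 to 1.2 RPM. KCNJ3 had 2408 and 3677 reads in the GIRK1 libraries and 0 reads in the eGFP libraries and in WT replicate 2. The library labelled WT replicate 1 had 48 reads of KCNJ3 and also stood apart in its epithelial markers. The summed level of 12 luminal markers was 19200 RPM there and 532 to 1030 RPM in the other 5 libraries, while that of 10 basal markers was 365 RPM against 8890 to 17500 RPM. ESR1, PGR, TFF1, TFF3 and KRT19 were read in this library and had 0 reads in the other 5, and the basal marker TP63 had 0 reads in all 6. Of the fibroblast markers, 8.6 to 33.5 RPM were summed per library, and of the leukocyte markers 0 to 21.6 RPM, all of it CD14. The luminal and basal markers of WT replicate 1 went against those of the other libraries labelled MCF10A, so its label is in doubt. WT replicate 1 was therefore kept out of the fits and its values are given apart. The deposited names of both GIRK1 libraries carry a tag that the other 4 lack, whose meaning is not known. If it stands for a sequencing run, the run cannot be told apart from the condition.

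Against eGFP, most replication genes had lower values in the GIRK1 libraries, but no single gene passed the adjusted threshold. Of the 46 tested genes, 42 had a negative log2 fold change, beside 49.2% of all 11380 genes tested, and 4 a positive one (CDC6, PCNA, BRCA1 and EXO1), beside 50.8%. The median was -0.49, against 0.00978 over all genes tested. With edgeR's quasi-likelihood test and Benjamini-Hochberg adjustment over all genes, 0 of the 46 had an adjusted p below 0.05, and the smallest adjusted p was 0.0789, for MCM5. Over all genes tested, 0.773% passed as lower and 0.773% as higher. At an unadjusted p below 0.05, 8 of the 46 (17.4%) were lower, namely MCM5, CDC45, PRIM1, POLD1, RRM1, RRM2, TK1 and UHRF1, beside 10.9% of all genes, and 0 were higher, beside 8.22%. By the DESeq2 test, 5 of the genes passed the adjusted threshold as lower (MCM5, CDC45, RRM2, TK1 and UHRF1; 10.9%), beside 3.94% of all genes. The edgeR count of 0 became 2 lower and 1 higher without eGFP replicate 1 (4.35% and 2.17%), where 3.28% of all genes were called lower and 2.42% higher, which is near the background. It became 25 lower without eGFP replicate 2 (54.3%), where 13.4% of all genes were called lower. In bulk libraries, fewer cells in S phase and less RNA per cell cannot be told apart. By flow cytometry, the paper reports no significant difference in cell cycle stages between its WT, eGFP and GIRK1 lines of MCF10A.

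**Figure D1:**
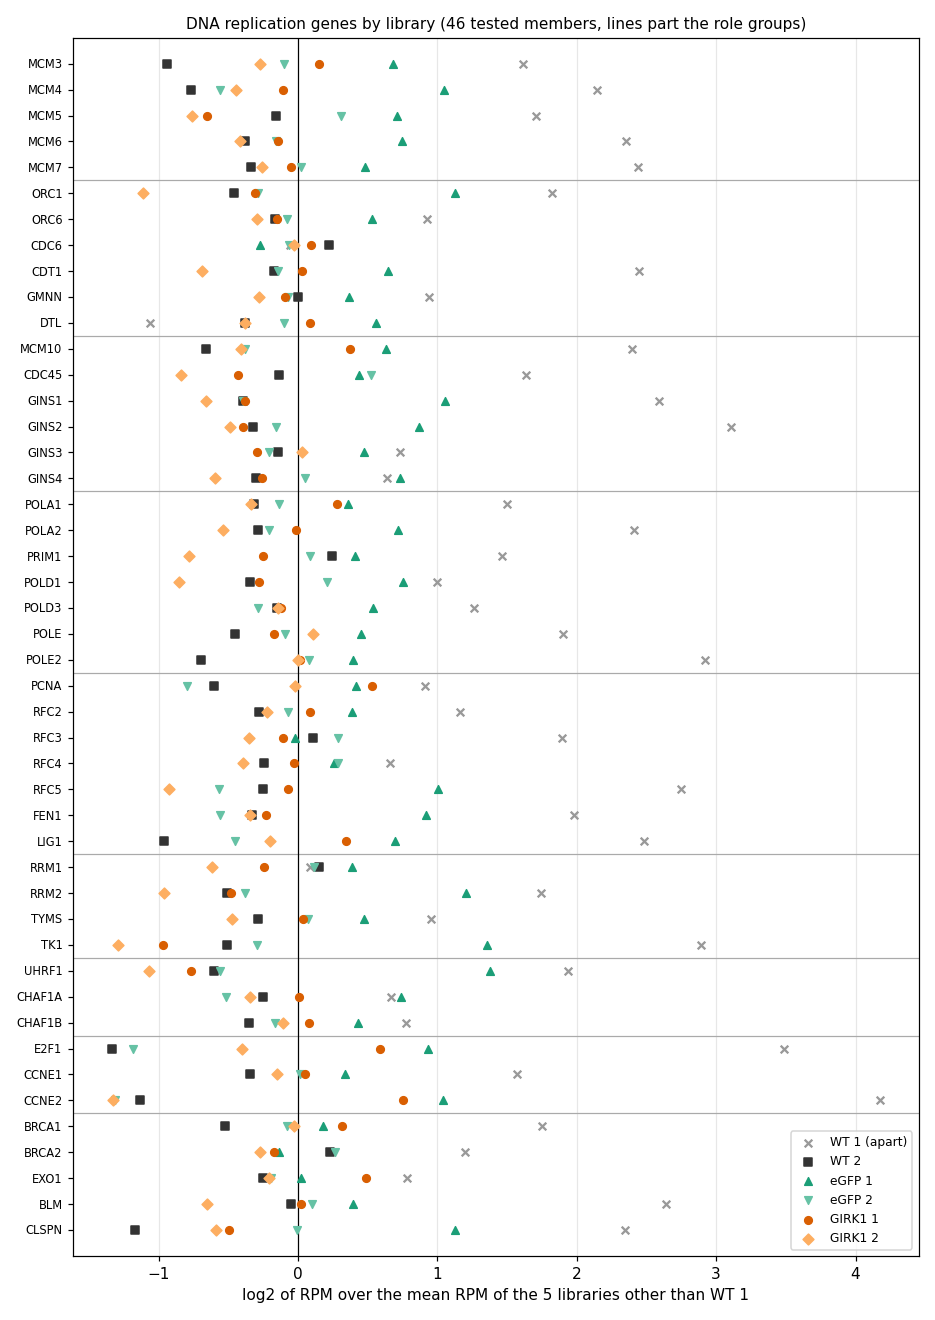
Level of each of the 46 tested genes in each library, as log2 of its RPM over its mean RPM in the 5 libraries other than WT replicate 1, with horizontal lines between the groups of genes by role. Single points are single libraries; eGFP replicate 1 (dark green triangles) has the highest of the 5 values for 38 genes, and WT replicate 1 (grey crosses) the highest of all 6 for 41.

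The MCM2-7 subunits form the ring of the replicative helicase, and 5 of the 6 could be tested. All 5 had negative log2 fold changes against eGFP, from -1.27 to -0.44, and 3 of 5 did without eGFP replicate 1, where the median moved from -0.692 to -0.1. MCM5 lies on chromosome 22 from 35400063 to 35425430 (GRCh38, as are all positions that follow). It had 247 and 375 reads in the eGFP libraries (48.2 and 36.6 RPM), 209 and 180 in the GIRK1 libraries (18.8 and 17.4 RPM) and 425 in WT replicate 2 (26.5 RPM). Both GIRK1 libraries were below all 3 controls. The means were 42.4 ± 8.16 RPM in eGFP and 18.1 ± 1.0 RPM in GIRK1 (SD, n = 2), a log2 fold change of -1.27 (SE 0.26; edgeR adjusted p = 0.0789). For MCM3 (chromosome 6, 52264009 to 52284881), whose promoter is printed above, the level was 83.9 and 48.7 RPM in eGFP, 57.8 and 43.3 RPM in GIRK1 and 27.2 RPM in WT replicate 2. The groups overlapped, since GIRK1 replicate 1 was above eGFP replicate 2, and WT replicate 2 was the lowest of the 5 (log2 fold change -0.44, SE 0.33, edgeR adjusted p = 0.497). MCM2 could not be tested: 0 reads were counted in 5 libraries and 1 read in WT replicate 1. The files hold a further column named overlaps, whose definition is not given and which was read here as the reads that overlap the amplicon. It held 98 to 200 for MCM2 per library. Such a gap, with an entry of at least 50 in every library and under 1% of it counted, was present for 11 of the 20793 amplicons, of which MCM2 was the only gene of the set. For the 46 tested genes the counted reads were 94.7 to 100% of this column.

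Of the origin licensing genes, 5 of 6 had negative log2 fold changes (median -0.481, or -0.111 without eGFP replicate 1). ORC1, the largest subunit of the origin recognition complex (chromosome 1, 52372829 to 52404459), had 18.7 and 7.04 RPM in eGFP, 6.93 and 3.96 RPM in GIRK1 and 6.23 RPM in WT replicate 2. The value of eGFP replicate 1 stood far above the other 4, of which GIRK1 replicate 2 was the lowest. The log2 fold change was -1.27 (SE 0.56; edgeR adjusted p = 0.277), and -0.352 without eGFP replicate 1. CDC6, which with CDT1 loads the helicase (chromosome 17, 40287633 to 40304657), had 39.6 and 45.8 RPM in eGFP, 51.0 and 47.0 RPM in GIRK1 and 55.9 RPM in WT replicate 2. It was the only gene of the set with both GIRK1 libraries above both eGFP libraries, beside 29.0% of all genes tested, and the only one that was highest in WT replicate 2 (log2 fold change 0.16, SE 0.20, edgeR adjusted p = 0.704). GMNN, the inhibitor of CDT1, ORC6, CDT1 and DTL, part of the ligase that degrades CDT1, had log2 fold changes between those of ORC1 and CDC6.

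The genes that turn the loaded ring into the active helicase had a median of -0.903 over 6 genes, with all 6 negative. Without eGFP replicate 1 the median was -0.188, and 4 of the 6 were negative. CDC45 (chromosome 22, 19479459 to 19520612) had 248 and 524 reads in eGFP (48.4 and 51.2 RPM), 294 and 206 in GIRK1 (26.5 and 19.9 RPM) and 519 in WT replicate 2 (32.4 RPM). Its eGFP replicates lay closer together than those of ORC1, and both GIRK1 libraries were below all 3 controls. The means were 49.8 ± 2.0 and 23.2 ± 4.64 RPM (SD, n = 2), a log2 fold change of -1.15 (SE 0.24; edgeR adjusted p = 0.0792). MCM10, which helps to activate the helicase (chromosome 10, 13161554 to 13211104), had 22.2 and 11.0 RPM in eGFP, 18.5 and 10.8 RPM in GIRK1 and 9.04 RPM in WT replicate 2. Replicate 1 was high and replicate 2 low in eGFP and GIRK1 alike, and the groups overlapped (log2 fold change -0.22, SE 0.44, edgeR adjusted p = 0.810). The GINS subunits GINS1 to GINS4 were all below eGFP in their fitted value, with both GIRK1 libraries below both eGFP libraries for GINS2 and GINS4.

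All 7 genes of the DNA polymerases and primase had negative log2 fold changes, with a median of -0.347, whereas 4 of 7 did without eGFP replicate 1 (median -0.0241). POLD1, the catalytic subunit of polymerase delta (chromosome 19, 50384204 to 50418016), had 47.0 and 32.2 RPM in eGFP, 23.0 and 15.5 RPM in GIRK1 and 22.0 RPM in WT replicate 2. Both GIRK1 libraries were below eGFP, but WT replicate 2 lay between them (log2 fold change -1.09, SE 0.32, edgeR adjusted p = 0.151). POLA1, the catalytic subunit of polymerase alpha (chromosome X, 24693919 to 24996986), had 20.1 and 14.3 RPM in eGFP, 19.0 and 12.4 RPM in GIRK1 and 12.6 RPM in WT replicate 2. The groups overlapped, and the log2 fold change was -0.17 (SE 0.34; edgeR adjusted p = 0.808). PRIM1, the primase catalytic subunit, was the other gene of this group with an unadjusted p below 0.05, and its GIRK1 libraries were both below all 3 controls.

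Of the clamp, the clamp loader and the enzymes that join Okazaki fragments, 6 of 7 genes had negative values and PCNA a positive one (median -0.406). Leaving out eGFP replicate 1 turned the median to 0.152, with 2 of 7 negative. PCNA, the sliding clamp (chromosome 20, 5114953 to 5126626), had 861 and 743 reads in eGFP (168 and 72.6 RPM), 2021 and 1279 in GIRK1 (182 and 124 RPM) and 1329 in WT replicate 2 (82.9 RPM). The highest value was in GIRK1 replicate 1, next to eGFP replicate 1, and the other eGFP library had the lowest. With means of 120 ± 67.4 RPM in eGFP and 153 ± 41.2 RPM in GIRK1 (SD, n = 2), the log2 fold change was 0.28 (SE 0.43; edgeR adjusted p = 0.751). RFC5, a subunit of the clamp loader (chromosome 12, 118013588 to 118033130), had 12.5 and 4.20 RPM in eGFP, 5.94 and 3.29 RPM in GIRK1 and 5.24 RPM in WT replicate 2. Only eGFP replicate 1 stood out (log2 fold change -0.88, SE 0.61, edgeR adjusted p = 0.466, and 0.152 without that library). Pseudogenes are named for PCNA, RFC3, RFC5, FEN1, RRM2 and TYMS, and how reads from near-identical copies were treated is not stated, so these 6 genes are less certain. Exons of 17 of the 49 genes overlap a gene on the opposite strand, among them RFC5, TYMS and CLSPN, and the use of strand in the counting is not stated.

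The genes of deoxynucleotide supply had the lowest median of the groups, -1.06 over 4 genes, all negative. They remained so without eGFP replicate 1, with a median of -0.416. TK1, the thymidine kinase of the salvage pathway (chromosome 17, 78174075 to 78187233), had 615 and 392 reads in eGFP (120 and 38.3 RPM), 267 and 198 in GIRK1 (24.0 and 19.1 RPM) and 527 in WT replicate 2 (32.9 RPM). Both GIRK1 libraries were below all 3 controls, while eGFP replicate 1 was 3.13 times as high as eGFP replicate 2. The means were 79.1 ± 57.7 and 21.6 ± 3.47 RPM (SD, n = 2), and the log2 fold change of -1.94 (SE 0.54) was the most negative of the set in this fit, with an edgeR adjusted p of 0.137. It was -0.812 without eGFP replicate 1, where CDC45 and MCM5 were more negative, and -2.58 without eGFP replicate 2. TYMS, which makes thymidylate (chromosome 18, 657604 to 673578), had 164 and 124 RPM in eGFP, 121 and 85.0 RPM in GIRK1 and 96.7 RPM in WT replicate 2. GIRK1 replicate 1 was just below eGFP replicate 2, and WT replicate 2 lay between the GIRK1 libraries (log2 fold change -0.54, SE 0.27, edgeR adjusted p = 0.335). RRM1 and RRM2, the subunits of ribonucleotide reductase, had both GIRK1 libraries below both eGFP libraries, RRM1 also below WT replicate 2.

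UHRF1, which carries DNA methylation over to the new strand (chromosome 19, 4903080 to 4962154), had 47.8 and 12.5 RPM in eGFP, 10.8 and 8.79 RPM in GIRK1 and 12.1 RPM in WT replicate 2. A single library, eGFP replicate 1, was far above the rest, and the GIRK1 libraries were the lowest 2 of the 5 by a small margin. The log2 fold change was -1.67 (SE 0.62; edgeR adjusted p = 0.217), and -0.336 without that library. The median of the 3 chromatin genes went from -0.448 to 0.168 when it was left out. CHAF1B, a subunit of the chromatin assembly factor CAF-1 (chromosome 21, 36385378 to 36419015), had 25.4 and 16.8 RPM in eGFP, 19.9 and 17.5 RPM in GIRK1 and 14.8 RPM in WT replicate 2. Both GIRK1 libraries lay between the eGFP libraries (log2 fold change -0.22, SE 0.31, edgeR adjusted p = 0.730).

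The E2F factors and E cyclins had a median of -0.186 against eGFP over the 3 that could be tested, which turned to 1.37 without eGFP replicate 1. E2F1, the activator of S phase genes (chromosome 20, 33675683 to 33686404), had 106 and 49 reads in eGFP (20.7 and 4.79 RPM), 181 and 85 in GIRK1 (16.3 and 8.21 RPM) and 69 in WT replicate 2 (4.30 RPM). Replicate 1 was the higher in eGFP and in GIRK1, and both GIRK1 libraries lay between the eGFP libraries. The log2 fold change was -0.08 (SE 0.69; edgeR adjusted p = 0.956), and the means were 12.7 ± 11.2 and 12.3 ± 5.71 RPM (SD, n = 2). CCNE1, the cyclin that drives CDK2 into S phase (chromosome 19, 29811898 to 29824308), had 8.78 and 7.04 RPM in eGFP, 7.20 and 6.28 RPM in GIRK1 and 5.49 RPM in WT replicate 2. The groups overlapped (log2 fold change -0.26, SE 0.34, edgeR adjusted p = 0.70). E2F2 and the repressor E2F8 were not tested, with 2 to 6 reads and 1 to 12 reads per library in the 5 libraries, so a difference was not detectable at this depth.

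Among the genes of fork protection and recombination repair, 3 of 5 had negative values (median -0.344, or -0.362 without eGFP replicate 1). CLSPN, which carries the checkpoint signal at stalled forks (chromosome 1, 35720218 to 35769967), had 44 and 40 reads in eGFP (8.58 and 3.91 RPM), 31 and 27 in GIRK1 (2.79 and 2.61 RPM) and 28 in WT replicate 2 (1.75 RPM). Both GIRK1 libraries were below eGFP, and WT replicate 2 was below them (log2 fold change -1.23, SE 0.52, edgeR adjusted p = 0.269, and -0.517 without eGFP replicate 1). EXO1, an exonuclease of mismatch repair and end resection (chromosome 1, 241847967 to 241895148), had 20.3 and 17.5 RPM in eGFP, 28.0 and 17.3 RPM in GIRK1 and 16.8 RPM in WT replicate 2. GIRK1 replicate 1 was the highest, and its replicate was below both eGFP libraries (log2 fold change 0.22, SE 0.31, edgeR adjusted p = 0.727). BRCA2 and BLM were negative and BRCA1 was near 0.

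**Figure D2:**
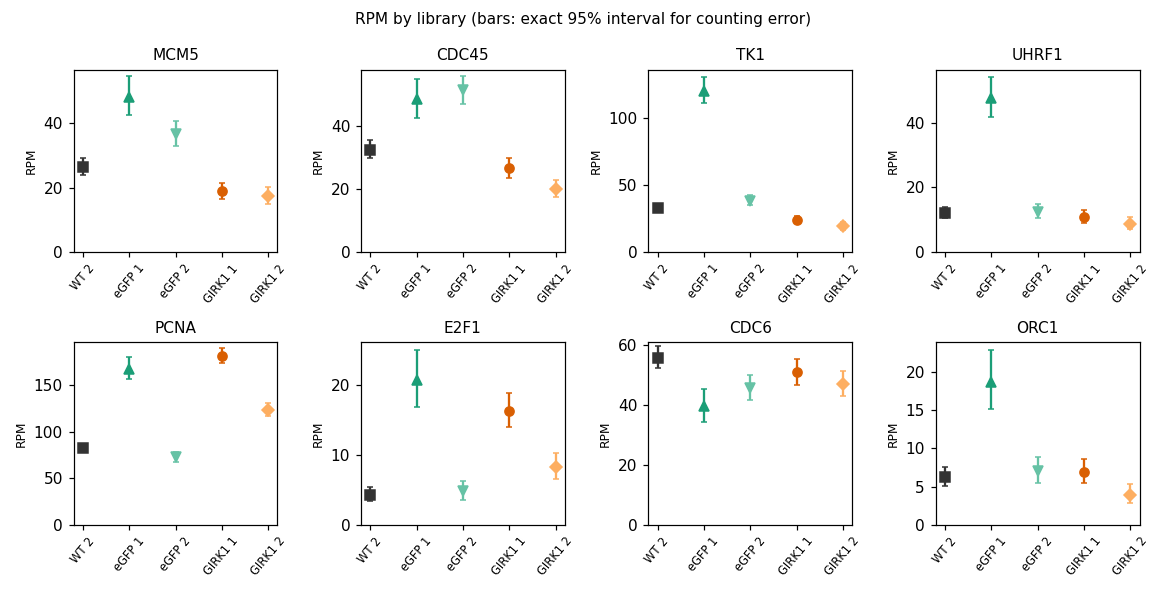
RPM of 8 genes in the 5 libraries other than WT replicate 1, each on its own axis from 0; points are single libraries and bars are exact (Clopper-Pearson) 95% intervals that cover counting error only. MCM5, CDC45, TK1 and UHRF1 have both GIRK1 libraries below all 3 controls, UHRF1 by a small margin. TK1, UHRF1 and ORC1 are high in eGFP replicate 1, and PCNA and E2F1 are high in replicate 1 of eGFP and of GIRK1.

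The study's methods ask for a 2-fold change and a coefficient of variation under 0.7, and do not name the normalization. Here the fold was taken between group means of RPM and the coefficient within each group of replicates. By this rule, which is not a test, 6 of the 46 genes (13.0%) were lower in GIRK1 than in eGFP, namely MCM5, ORC1, CDC45, GINS1, POLD1 and CLSPN, beside 5.36% of all genes tested. None of the 46 was higher, beside 4.72%. Without the limit on the coefficient 9 of the 46 (19.6%) were lower, beside 7.3% of all genes. The 3 added were RRM2, TK1 and UHRF1, whose eGFP replicates differed by more than the limit.

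Against WT replicate 2 the same genes split by sign. The log2 fold change was negative for 20 (beside 49.7% of all genes) and positive for 26 of the 46 (beside 50.3%), with a median of 0.0567 (0.00302 over all genes), and 0 passed the adjusted threshold (edgeR, smallest adjusted p = 0.702), beside 0.0351% of all genes called lower and 0.202% called higher. At an unadjusted p below 0.05 the count was 0 in each direction, beside 3.68% of all genes lower and 3.81% higher. By DESeq2 the median was 0.058. In a fit blocked on replicate number the median turned to -0.213, with 30 of the 46 negative. The share of negative values over all genes was not computed for that fit. The fits share the GIRK1 libraries, and the WT group has 1 library, which is assumed to vary as the others do. E2F1 had the most positive value, 1.52 (SE 0.90; edgeR adjusted p = 0.777), followed by CCNE2 and LIG1. LIG1, the ligase that joins Okazaki fragments, is named here after its values were seen. It had 49.2 and 22.3 RPM in eGFP, 38.6 and 26.5 RPM in GIRK1 and 15.6 RPM in WT replicate 2. WT replicate 2 was the lowest of the 5, and the log2 fold change against it was 1.07 (SE 0.54; edgeR adjusted p = 0.743). PCNA gave 0.90 (SE 0.55; edgeR adjusted p = 0.791). MCM5 gave -0.53 (SE 0.31), CDC45 -0.46 (SE 0.28) and TK1 -0.59 (SE 0.63), and their edgeR adjusted p-values were 0.771, 0.790 and 0.900. By role, the median against WT replicate 2 was 0.201 for the MCM2-7 subunits, -0.13 for licensing, -0.0982 for helicase activation, 0.0537 for the polymerases, 0.0617 for the clamp and loader genes, -0.363 for deoxynucleotide supply, 0.107 for the chromatin genes, 1.2 for the E2F factors and E cyclins and 0.449 for fork protection and repair. The median of 1.2 is the value of CCNE2 (SE 1.19), in a group of 3 tested genes. CCNE2 had few reads, 16 in WT replicate 2 and 41 and 9 in the GIRK1 libraries.

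**Figure D3:**
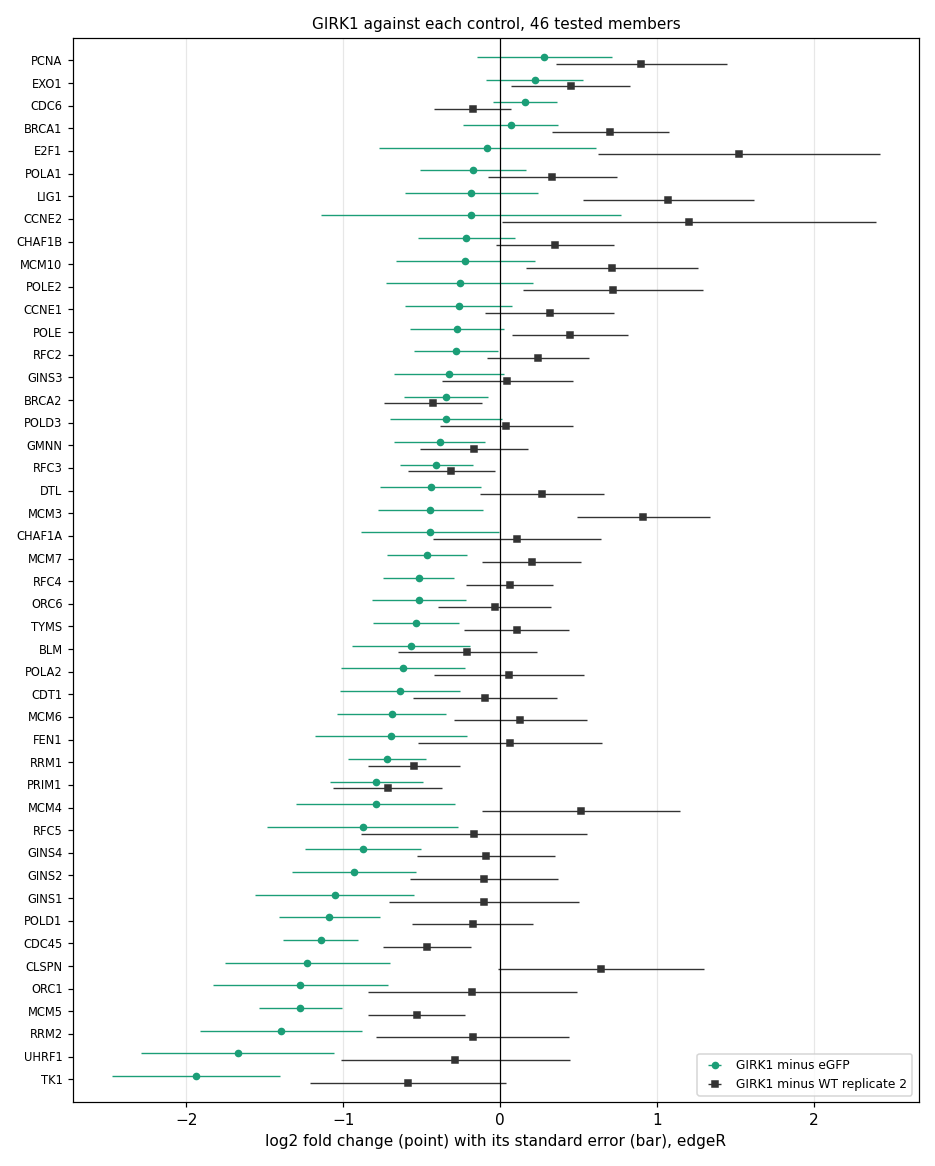
Log2 fold change of the 46 tested genes in the GIRK1 libraries against eGFP (green circles) and against WT replicate 2 (dark squares), with bars of 1 standard error, from 1 edgeR fit of 5 libraries. Against eGFP 42 of 46 points lie left of 0 and against WT replicate 2 only 20 do; both comparisons share the GIRK1 libraries.

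Set against the 3 controls as 1 group, GIRK1 had negative values for 37 of the 46 genes, beside 50.7% of all genes tested, and positive ones for 9, beside 49.3% (median -0.36, against -0.00732 over all genes). Again 0 passed (edgeR, smallest adjusted p = 0.145), beside 0.413% of all genes called lower and 0.8% called higher, and 5 were lower at an unadjusted p below 0.05 (10.9%, beside 10.2% of all genes): MCM5, CDC45, PRIM1, RRM1 and TK1. DESeq2 called MCM5 and CDC45 as lower (4.35%), beside 4.09% of all genes, and 0 as higher, beside 2.95%. Without eGFP replicate 1 the median was -0.000279, and 4 genes passed with edgeR, MCM5 and TK1 as lower (4.35%, beside 4.43%) and PCNA and E2F1 as higher (4.35%, beside 4.31%). These shares are near those of all genes. Both GIRK1 libraries were below all 3 controls for 10 of the 46 (21.7%), a share near the 19.5% of all genes tested. These were MCM5, GMNN, CDC45, GINS2, PRIM1, RFC3, RRM1, TK1, UHRF1 and BRCA2. No gene of the set had both GIRK1 libraries above all 3 controls, whereas 21.6% of all genes did. Compared with the eGFP libraries alone, both GIRK1 libraries were below for 21 of 46 (45.7%, beside 25.1%).

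The controls differed among themselves, most of all in eGFP replicate 1. Relative to WT replicate 2, eGFP replicate 1 was higher for 42 of 45 genes and eGFP replicate 2 for 34 of 45. Over all genes these counts were 3672 and 4436 of 8830. The median ratios were 1.87 and 1.13, against 0.923 and 1.0 over all genes. Among the 5 libraries, eGFP replicate 1 had the highest RPM for 38 of the 46 genes (82.6%), beside 26.0% of all genes tested. The exceptions were CDC6, which was highest in WT replicate 2, CDC45, RFC3, RFC4 and BRCA2, which were highest in eGFP replicate 2, and PCNA, BRCA1 and EXO1, which were highest in GIRK1 replicate 1. For 26 of the 46 (56.5%) eGFP replicate 1 was at least 1.5 times eGFP replicate 2, beside 14.3% of all genes, and the reverse was seen for 0, beside 22.2%. Over the tested genes the ratio ran from 0.756 for BRCA2 to 5.10 for CCNE2, which had only 23 and 9 reads in these libraries. Over the 45 genes with at least 10 reads in all 6 libraries, the median ratio of replicate 1 to replicate 2 was 1.57 in eGFP and 1.26 in GIRK1. It was 0.92 and 1.01 over 8830 genes. The ratio was above 1 for 40 of 45 in eGFP and 43 of 45 in GIRK1, beside 3617 and 4705 of the 8830 genes. eGFP replicate 1 was also the shallower eGFP library, with 5126930 reads against 10233974, and its summed basal markers were 17500 RPM against 11200 RPM and its luminal ones 532 RPM against 889 RPM. The part of depth and of these markers in the result was not tested.

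The comparison with eGFP changed with the eGFP library that entered it. Without eGFP replicate 1, the median log2 fold change of the 46 genes against eGFP was -0.0758, 27 were negative, and 3 passed the adjusted threshold, in a fit that called 643 of 11265 genes: MCM5 (log2 fold change -1.0) and CDC45 (-1.13) as lower and PCNA (1.09) as higher, with edgeR adjusted p-values of 0.0342, 0.0227 and 0.0346. Without eGFP replicate 2 the median was -0.84 and 25 genes passed, all lower, in a fit that called 2825 of 11282 genes. The shared coefficient of biological variation was 0.1497 and 0.1499 in these fits, against 0.2403 in the fit of 5 libraries. In these fits the spread came from the GIRK1 libraries alone, because eGFP and WT had a single library each. The spread between the eGFP libraries did not enter, and the remaining eGFP library was assumed to vary as the GIRK1 libraries do. MCM5 and CDC45 were thus lower in both fits. Their log2 fold changes ran from -1.51 to -1.0 and from -1.34 to -0.967 over all fits that left out 1 library. Neither gene passed the adjusted threshold when a GIRK1 library was left out. E2F1 ran from -0.856 to 1.37 and PCNA from -0.24 to 1.09, and both changed sign with the library that was left out.

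**Figure D4:**
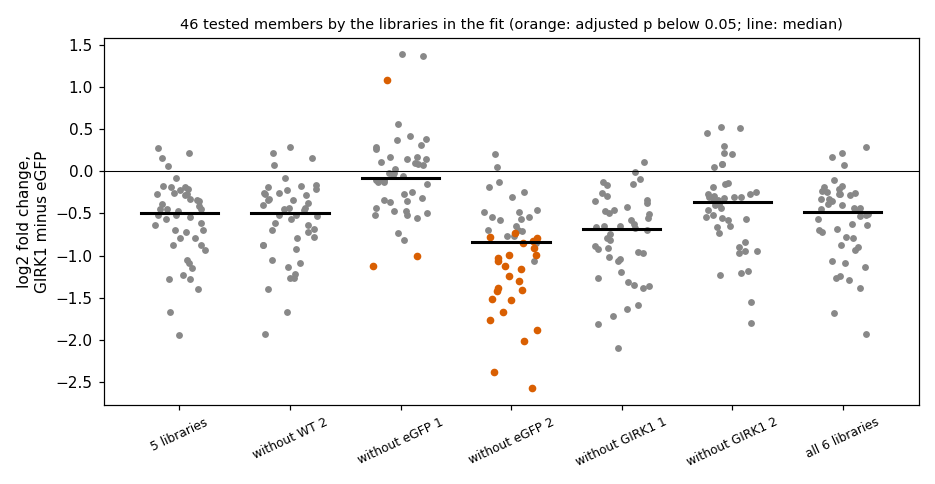
Log2 fold change of the 46 tested genes, GIRK1 against eGFP, by the libraries that entered the edgeR fit; points are genes, the black line is their median and orange points have an adjusted p below 0.05. The median is -0.0758 without eGFP replicate 1 and -0.84 without eGFP replicate 2, with 3 and 25 orange points.

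Genes with and without E2F letters in their promoter had similar shares of negative values against eGFP. Of the 21 tested genes with a match, 18 had a negative log2 fold change (median -0.443), and of the 20 without a match 19 did (median -0.543). Against WT replicate 2 the medians were 0.201 with a match (6 of 21 negative) and -0.164 without (12 of 20 negative). The median ratio of eGFP replicate 1 to replicate 2 was 1.72 with a match and 1.42 without. These values describe the genes and were not tested.

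The other genes of the pathway, 63 by list of which 62 were found and 60 tested, had a median log2 fold change of -0.365 against eGFP, with 42 negative and 18 positive. None of the 60 passed the adjusted threshold, beside 0.773% of all genes in each direction. At an unadjusted p below 0.05 (edgeR), 12 were lower, beside 10.9% of all genes, and 1 higher, beside 8.22%. By DESeq2, 2 passed (CHEK1 and WDHD1, both lower), beside 3.94% of all genes called lower and 1.99% called higher. The edgeR count was 1 (CHEK1) without eGFP replicate 1 and 25 without eGFP replicate 2, in the fits that called 643 and 2825 of all genes. The further replication genes had 24 of 30 negative values (median -0.41) and the checkpoint and repair targets 11 of 12 (median -0.603). The E2F and pocket protein genes had 7 of 18 negative and a median of 0.0876. CHEK1, the checkpoint kinase, had 21.3 and 17.5 RPM in eGFP, 7.38 and 7.34 RPM in GIRK1 and 12.9 RPM in WT replicate 2. Its GIRK1 libraries were below all 3 controls, and the log2 fold change was -1.44 (SE 0.28; edgeR adjusted p = 0.0718). RBL1, a pocket protein that holds E2F factors in check, had a positive value, with 8.39 and 13.2 RPM in eGFP, 25.1 and 21.2 RPM in GIRK1 and 14.7 RPM in WT replicate 2 (log2 fold change 1.05, SE 0.29, edgeR adjusted p = 0.136). E2F7, a repressor of E2F targets, had 20.9 and 15.3 RPM in eGFP, 8.82 and 9.09 RPM in GIRK1 and 12.8 RPM in WT replicate 2 (log2 fold change -1.06, SE 0.30, edgeR adjusted p = 0.143).

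Mitotic genes, which act after replication, showed another pattern across the libraries. Relative to WT replicate 2, the median ratio of the replication genes was 1.87 in eGFP replicate 1, 1.13 in eGFP replicate 2 and 1.15 and 0.915 in the GIRK1 libraries. For 23 mitotic genes it was 1.29 and 1.07 in the eGFP libraries and 0.457 and 0.486 in the GIRK1 libraries, where 0 of the 23 were above WT replicate 2. The replication genes were above WT replicate 2 for 33 of 45 in GIRK1 replicate 1 and for 18 of 45 in GIRK1 replicate 2. Over all genes these counts were 4350 and 4064 of 8830. All 24 tested mitotic genes (of 24 listed) had negative log2 fold changes against eGFP (median -1.32) and against WT replicate 2 (median -1.07). Against eGFP 5 of them passed the adjusted threshold as lower (named for that reason, CCNB2, PLK1, KIF20A, TPX2 and UBE2C), beside 0.773% of all genes. At an unadjusted p below 0.05 (edgeR), 23 were lower, beside 10.9% of all genes. KIF20A, a kinesin of the late stages of division, had 71.6 and 44.2 RPM in eGFP, 10.5 and 10.2 RPM in GIRK1 and 38.1 RPM in WT replicate 2. It fell by 2.53 on the log2 scale against eGFP (SE 0.33; edgeR adjusted p = 0.0223). The count of 5 was 1 without GIRK1 replicate 1, 3 without GIRK1 replicate 2, 17 without eGFP replicate 1 and 20 without eGFP replicate 2, in fits that called 228, 158, 643 and 2825 of all genes. No test of the difference between the lists was made.

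**Figure D5:**
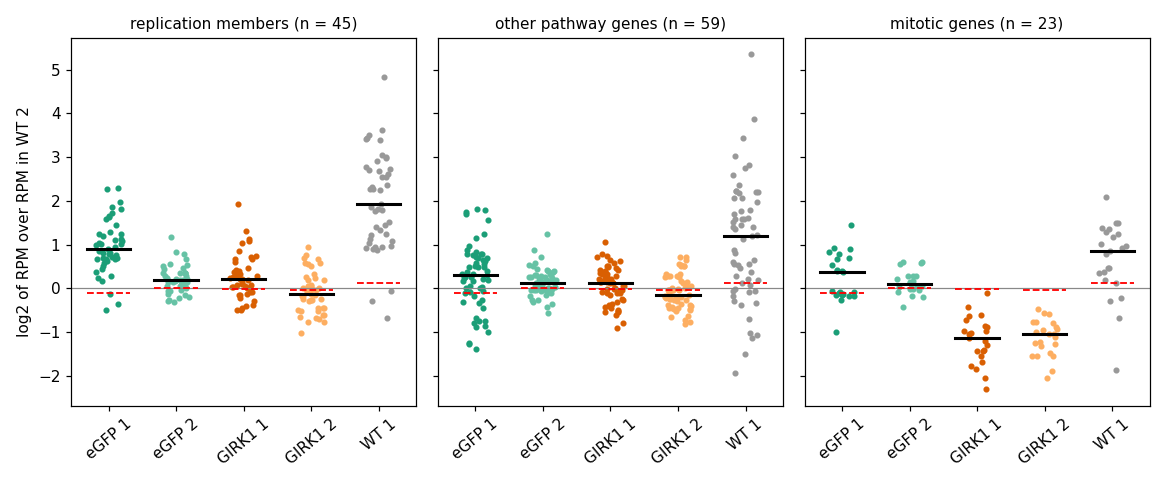
Log2 of RPM over RPM in WT replicate 2 for the replication genes, the other pathway genes and the mitotic genes that had 10 reads or more in each of the 6 libraries; points are genes, black lines their medians and red dashed lines the medians of all 8830 such genes. The mitotic genes of both GIRK1 libraries all lie below 0, whereas the replication genes are highest in eGFP replicate 1 and in WT replicate 1.

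The library labelled WT replicate 1, kept apart, had the highest level of the 6 libraries for 41 of the 46 tested genes (89.1%), beside 37.0% of all genes tested. The median ratio to WT replicate 2 was 3.78 over 45 replication genes, against 1.82 over the 23 mitotic genes and 1.08 over all 8830 genes. E2F1 had 306 reads there (122 RPM) and 69 in WT replicate 2 (4.30 RPM), a ratio of 28.4. CCNE2 had 39.5 against 0.997 RPM, and TK1 had 347 against 32.9 RPM. E2F2 and E2F8, which were too low to test elsewhere, had 28 reads (11.2 RPM) and 84 reads (33.5 RPM). Only DTL (14.4 against 23.1 RPM), CDC6 (45.9 against 55.9 RPM) and RRM1 (53.9 against 56.4 RPM) were lower than in WT replicate 2. The same library had the high luminal markers and the KCNJ3 reads given above. Its MCF10A label is in doubt, so these ratios may not describe variation within the parental line. With 1 such library a joint change cannot be judged, and the part of these traits in the result was not tested.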

How the data were processed

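RNA of 6 libraries labelled MCF10A was read on the Ion S5 XL as amplicons and mapped by the authors with the Ion Torrent suite to the AmpliSeq transcriptome reference. The authors deposited whole-number read counts per amplicon and RPM, the counts scaled to the library total, which differed from recomputed values by at most 0.00066. A column of counts named overlaps, which the authors deposited without a definition, was used only to examine low genes. Rows of 19 spike-in controls (0.0188 to 0.0263% of reads) were left out of the tests. Libraries were grouped by their labels.

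Counts of 5 libraries, without WT replicate 1, were fitted with edgeR 4.0.16 (R 4.3.3, limma 3.58.1): TMM normalization, the filterByExpr filter with GIRK1 and control as groups (11380 genes kept), glmQLFit and glmQLFTest, and Benjamini-Hochberg adjustment over all genes with a threshold of 0.05. The shared coefficient of biological variation was 0.2403. Standard errors were derived from the F value. The tested genes of the set had 9 to 2021 reads per library (median 204). Exact intervals (95%, scipy 1.17.1) and the 3-read limit cover counting error only, because PCR reads are not independent molecules. DESeq2 1.42.0, other normalizations and filters, all 6 libraries, the replicate number as a block and leaving out each library were alternatives. The procedure was also run on simulated counts. These gave every control library the same expected level of a gene, so they do not cover the difference between the eGFP libraries. Genome positions are those of the GENCODE annotation of GRCh38 matched by symbol (49 of 49).

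The 49 genes, the role groups and the other lists were chosen with earlier results of these data known. Values in every library are given for the lowest and the highest log2 fold change against eGFP in each role group, by a rule written with those results known, and of the other lists genes were named from the 2 lowest and 2 highest. No gene set test was run, and the proliferation and functional assays of the study were not analysed here.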

Additional observations from a re-analysis of the deposited data

Results flagged for a closer look

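In the library labelled WT replicate 1, which entered none of the comparisons, 41 of the 46 tested replication genes had their highest RPM of the 6 libraries. The value is listed because it is a signal in data outside the comparisons, and the share over all genes tested was 37.0%. No group had 4 samples or more, so single libraries were not tested as outliers.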

How the results depend on the processing

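Against eGFP no replication gene passed in the edgeR fit described above. Without the filter on low counts 6 of 48 passed, with the DESeq2 test 5 of 46. With the replicate block 4 of 46 passed (MCM5, CDC45, POLD1 and TK1), and all of these calls were lower. Over all genes, 550 of 15197, 448 of 11380 and 328 of 11380 were called lower in these settings. Of the other pathway genes 2 passed in each of these 3 settings, and of the mitotic genes 20, 20 and 14, against 0 with all 6 libraries. Against the 3 controls, 2 replication genes passed with the DESeq2 test and 1 with the replicate block (RRM1). With all 6 libraries the median of the replication genes was -1.36 against WT and -0.936 against the controls, and E2F1 and LIG1 turned to -2.22 and -1.37 against WT. The block turned E2F1 against eGFP to 0.134. Over all genes, 862 were called against eGFP without the filter, 675 with DESeq2, 513 with the block and 0 with all 6 libraries, against 176. Against WT replicate 2 these counts were 133, 128, 73 and 0, against 27, and against the 3 controls 377, 801, 558 and 7, against 91 higher and 47 lower. The block rests on replicate numbers of 2 pairs, whose deviations had a correlation of 0.179 over 8830 genes, and with 2 pairs and no label of a shared batch a pairing was not established. Among the replication genes replicate 1 was above replicate 2 for 40 of 45 in eGFP and 43 of 45 in GIRK1. Over all genes these counts were 3617 and 4705 of 8830. Against WT replicate 2 the block turned the median of the replication genes to -0.213. Other normalizations, a minimum of 10 reads in every library and the fit of only the 4 libraries of eGFP and GIRK1 left the counts of replication genes at 0.

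Leaving out 1 library each, the replication genes called ran from 0 to 25 against eGFP (median -0.84 to -0.0758) and from 0 to 4 against the 3 controls (median -0.499 to -0.000279). Over all genes these fits called 158 to 2825 and 19 to 985. Without eGFP replicate 1 the 4 were MCM5 and TK1, lower, and PCNA and E2F1, higher. Against WT replicate 2 the count was 0 and the median -0.101 to 0.212, and the fit without WT replicate 2 could not be made. The other pathway genes called ran from 0 to 25 (median -0.428 to -0.113) and the mitotic genes from 1 to 20 (median -1.48 to -1.17). Among the genes chosen for the lowest or highest value of their role group, those that changed sign against eGFP were MCM3 (-0.833 to 0.0689), MCM10 (-0.704 to 0.421), POLA1 (-0.498 to 0.151), PCNA (-0.24 to 1.09), RFC5 (-1.53 to 0.152), CHAF1B (-0.541 to 0.168), E2F1 (-0.856 to 1.37) and EXO1 (-0.151 to 0.511). Other genes of the set changed sign too, among them MCM4 (-1.42 without eGFP replicate 2 and 0.311 without eGFP replicate 1) and FEN1 (-1.305 and 0.289). CCNE2 ran from -1.588 without GIRK1 replicate 1 to 1.387 without eGFP replicate 1. Of the chosen genes, TK1 (-2.58 to -0.812), UHRF1 (-2.39 to -0.336), ORC1 (-1.88 to -0.352) and CLSPN (-1.77 to -0.517) kept their sign but moved widely. So did RRM2 and GINS1, at -2.011 and -1.667 without eGFP replicate 2 and -0.315 and -0.105 without eGFP replicate 1. With 2 libraries a group, a p that misses the threshold does not show that levels were equal, and the shallowest library of the fits, eGFP replicate 1, limits the low genes most. The cause of these changes was not tested.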
